A study of Mus musculus with 4 samples.

Results

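NK lectin-like receptors and their signalling adaptors were examined in natural killer T (NKT) cells of the small intestinal lamina propria (SI-LP). The group holds 10 of the 25239 genes counted, chosen by name and not by their values. It has 7 receptor genes, *Klrb1c*, *Klrk1*, *Klrd1*, *Klrc1*, *Klrc2*, *Klre1* and *Klrg1*, and 3 adaptor genes, *Hcst*, *Tyrobp* and *Fcer1g*, and all 10 are in the table. The data were 4 bulk RNA-seq libraries of 1 condition, from wild-type mice labelled C57BL/6Jax, 2 from the first experiment (replicates 3 and 4) and 2 from the second (replicates 1 and 2). The mice were adults of both sexes that received the anti-ARTC2 nanobody, which protects T cells during tissue processing, shortly before harvest. The sorted cells were live TCRβ+ cells that bound CD1d tetramer loaded with PBS57 and lacked CD8, B220, CD11c and CD11b. No Klr receptor was part of that gate. The labels do not say whether the replicates came from separate animals, so the tests below measure the spread between these libraries. Libraries of NKT cells from lymphoid tissues are not analysed here, and levels are compared only between genes and between the 4 libraries.

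NK lectin-like receptors are type II membrane proteins with a C-type lectin-like domain, and in the mouse most of their genes lie together in the natural killer gene complex of chromosome 6. NKT1 cells share many of these receptors with NK cells, and NK1.1, the product of *Klrb1c* in C57BL/6 mice, gave NKT cells their name. Activating receptors have no signalling motif of their own and pair in the membrane with the adaptors DAP10 (*Hcst*), DAP12 (*Tyrobp*) or the Fc receptor γ chain (*Fcer1g*), whereas inhibitory receptors carry inhibitory motifs in their own tails. DAP10 recruits PI3 kinase and Grb2, and DAP12 and the γ chain recruit the kinases Syk and Zap70.

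On GRCm38, the build of the deposited table, 6 of the receptor genes (all but *Klrg1*) lie within 900489 bases of chromosome 6, from 128778485 to 129678973. *Klrg1* lies outside this interval on the same chromosome (122270597 to 122282833). The adaptor genes *Hcst* (chromosome 7, 30417712 to 30419854) and *Tyrobp* (30413782 to 30417579) are neighbours on opposite strands with their ends facing and 132 bases between them. *Fcer1g* lies on chromosome 1 (171229572 to 171234349). Since the counting did not use strand, overlapping genes could share reads, but the exons of none of the 10 genes overlap those of another gene. The 101-base windows of the longest transcript of each of the 10 genes (GENCODE vM39) were searched for in other genes. Only alignments without a mismatch were kept, and none covered such a window. An identical stretch within a longer alignment that holds mismatches would have been missed. The search therefore does not exclude reads that match a paralog exactly.

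Promoter sequence is shown as a description of the genes, and a link to their levels was not tested. RefSeq promoter windows on GRCm38.p6, from 250 bases before to 50 bases after a start site, were at hand for 7 of the 10 genes, in 9 windows. *Klrd1*, *Klrg1* and *Tyrobp* were not matched. The core letters of a Runx motif (TGTGGT, or ACCACA on the other strand) occurred in windows of 6 of these 7 genes, and in 16.8% of all 32817 promoter windows of 300 bases. The T-box letters AGGTGT, or ACACCT on the other strand, occurred in 0 of the 7 genes and in 13.7% of all windows, and the Ets letters AGGAAG, or CTTCCT on the other strand, in 4 of the 7 genes (*Klrb1c*, *Klre1*, *Hcst* and *Fcer1g*) and in 35.4% of all windows. A gene was counted with a match in any of its windows, whereas the percentages are of single windows, so the figures are not on a like basis. *Klre1* had its Runx match and its Ets match in different windows. A match describes the letters alone. The bases around each Runx match are given 5′ to 3′ on the strand of the gene, with the match in capitals.

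Klrb1c, chr6:128788713-128788742, minus strand: aggaaggaaagcTGTGGTcatggtgttttg
Klrk1, chr6:129623976-129624005, minus strand: tgatagctgtgcTGTGGTtgtgtgggggtt
Klrc1, chr6:129679043-129679072, minus strand: gttgttgttgttACCACAgcactcgtattc
Klrc2, chr6:129660615-129660644, minus strand: ttcaatagaatcACCACAgcatagaacaca
Klrc2, chr6:129660588-129660617, minus strand: acaagtagaattACCACAgagcccagaatt
Klre1, chr6:129577972-129578001, plus strand: ttgtgtttaagcTGTGGTtccagagagtca
Fcer1g, chr1:171234323-171234352, minus strand: gaaggagggaacTGTGGTcagggaactgtt

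*Hcst* was the gene without a match. The whole windows of *Klrb1c*, the receptor gene with the highest level, of *Hcst*, the adaptor gene with the highest level, and of *Fcer1g*, which differed between libraries in the direction opposite to most receptors, are given with the Runx and Ets letters in capitals on the strand shown. In *Klrb1c*, 2 of the 3 Ets matches overlap each other and form a single block of capitals.

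Klrb1c, chr6:128788592-128788891, minus strand: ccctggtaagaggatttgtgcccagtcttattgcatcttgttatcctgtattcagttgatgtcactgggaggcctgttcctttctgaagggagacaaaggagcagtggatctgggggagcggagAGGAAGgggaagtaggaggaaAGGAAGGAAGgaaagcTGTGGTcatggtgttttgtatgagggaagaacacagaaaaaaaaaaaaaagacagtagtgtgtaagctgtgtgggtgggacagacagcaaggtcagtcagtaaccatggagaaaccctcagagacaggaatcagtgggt
Hcst, chr7:30419805-30420104, minus strand: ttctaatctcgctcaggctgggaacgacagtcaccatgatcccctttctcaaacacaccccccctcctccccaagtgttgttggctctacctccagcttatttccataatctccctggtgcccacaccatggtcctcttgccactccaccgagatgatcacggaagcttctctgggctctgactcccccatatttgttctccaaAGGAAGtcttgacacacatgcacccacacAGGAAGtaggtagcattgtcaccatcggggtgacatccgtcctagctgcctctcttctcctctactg
Fcer1g, chr1:171234300-171234599, minus strand: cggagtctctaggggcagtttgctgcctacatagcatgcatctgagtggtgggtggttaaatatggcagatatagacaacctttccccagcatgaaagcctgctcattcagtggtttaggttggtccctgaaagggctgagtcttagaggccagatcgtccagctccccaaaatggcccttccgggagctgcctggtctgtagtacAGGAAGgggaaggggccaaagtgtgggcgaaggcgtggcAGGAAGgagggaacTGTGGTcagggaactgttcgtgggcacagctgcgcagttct

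Replicates 1 to 4 had 7233071, 8732858, 5487147 and 3882803 counts on genes, and the 10 genes took between 0.0203% and 0.0372% of them. A gene was taken as detected in a library above 3 counts, which is 0.287 to 0.753 CPM (counts divided by library sizes that edgeR's TMM factors adjust). The 8 T cell markers, such as *Cd3e*, took 0.129% to 0.394% of the counts and the 6 NKT markers, such as *Il2rb*, 0.1001% to 0.3996%, and all of them were above 3 counts in every library. *Cd8a* and *Cd8b1* together took at most 0.000149%. Replicates 2 and 4 stood apart, with 0.909% (95% Wilson interval 0.903% to 0.915%) and 2.90% (2.88% to 2.92%) of their counts on 18 epithelial markers against 0.0875% (0.0853% to 0.0896%) and 0.0173% (0.0162% to 0.0184%) in replicates 1 and 3. The other lists ranged over 0.00467% to 0.0247% for myeloid, 0.0114% to 0.839% for plasma, 0 to 0.00625% for B, 0.00313% to 0.0198% for stromal and endothelial, and 0.000581% to 0.00890% for mast cell and basophil markers. Markers of NK cells took 0.000747% to 0.00859%. Of these, *Ncr1*, *Eomes*, *Klra4* and *Klra8* were at 0 counts in all 4 libraries, and the rest were seen unevenly. *Klra9* had 571, 16, 10 and 2 counts in replicates 1 to 4, *Klri2* 16, 237, 9 and 1, and *Klrb1f* 3, 5, 42 and 26. *Klri1* had 22, 4, 18 and 0 counts and *Klra7* 9, 0, 6 and 0. Intervals and the floor of 3 counts cover counting error only.

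By the mean of the 4 libraries, *Hcst* and *Klrb1c* were the most abundant of the 10 genes and *Klrc2* the least. *Hcst* was at rank 1 or 2 in every library, whereas *Klrb1c* ranked behind *Fcer1g* in replicates 2 and 4 and behind *Tyrobp* in replicate 4, and the lowest gene was *Tyrobp* in replicate 1 and *Fcer1g* in replicate 3. Levels are compared between genes in TPM, which corrects the counts for gene length as well as for library size. *Hcst* had 327 ± 166 TPM (SD, n = 4) and stood on average at percentile 95.6 of the 11689 genes that reached 10 counts in 2 or more libraries. *Klrb1c* followed with 143 ± 97.2 TPM at percentile 87.6. The other 8 genes ranged from 67.4 ± 54.5 TPM for *Fcer1g* to 4.71 ± 3.22 TPM for *Klrc2*, and the median percentile of the 10 genes was 51.2, close to the 50 of all genes tested. All 10 passed this filter, and 8 were above 3 counts in all 4 libraries, against a background of 77.3% of genes tested. The exceptions were *Tyrobp*, at 0 counts in replicate 1, and *Klrc2*, at 1 count in replicate 4.

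**Figure D1:**
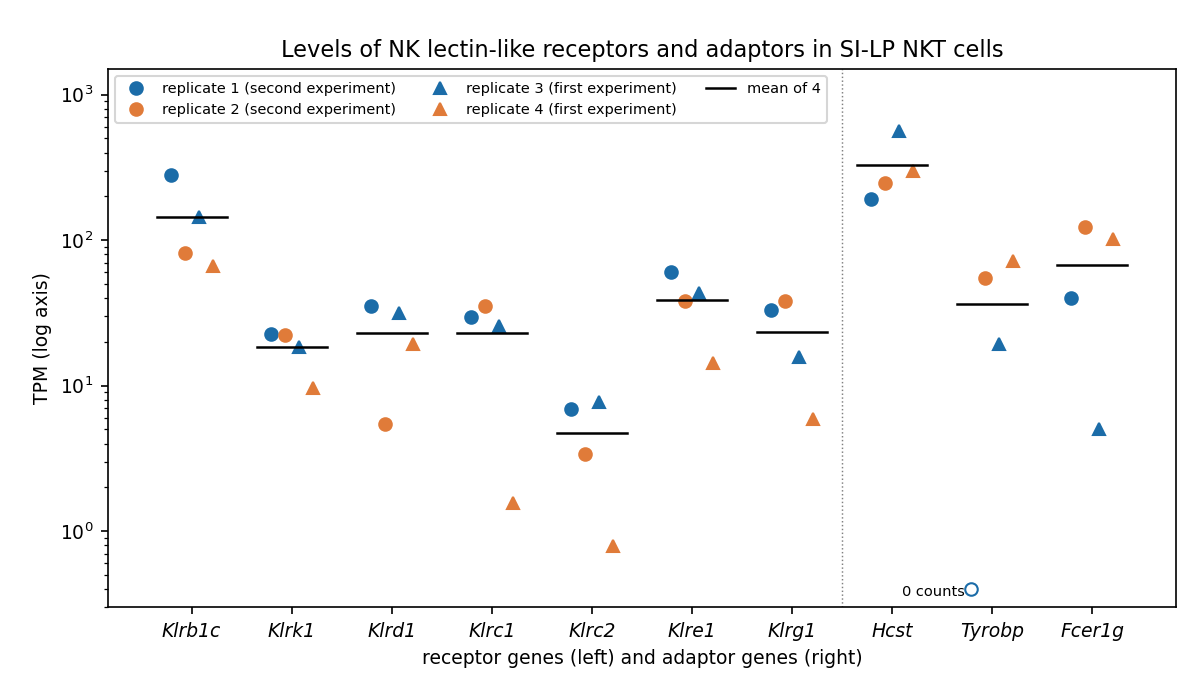
TPM (log axis) of the 7 receptor genes and 3 adaptor genes in each of the 4 SI-LP NKT cell libraries, with circles for the second experiment, triangles for the first and bars for the mean of 4, and an open circle for 0 counts. *Hcst* lies between 193 and 566 TPM, and *Tyrobp* runs from 0 counts to 71.7 TPM.

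By mean TPM the order was *Hcst*, *Klrb1c*, *Fcer1g*, *Klre1*, *Tyrobp*, *Klrg1*, *Klrc1*, *Klrd1*, *Klrk1* and *Klrc2*. Each gene was compared with the next in log2(TPM + 1) by a two-sided exact permutation test paired by library, which with 4 libraries cannot give a p below 0.125. Of the 9 pairs of neighbours, only *Klrk1* over *Klrc2* kept its order in all 4 libraries, with a mean difference of 1.93 ± 0.67 (SD, exact p = 0.125, adjusted p = 1 over the 9 pairs). *Hcst* exceeded *Klrb1c* in 3 of 4 libraries, by 1.29 ± 1.24 (exact p = 0.25), and replicate 1 had the reverse order. *Klrb1c* exceeded *Fcer1g* in 2 of 4, by 1.55 ± 2.58, and the other 6 pairs kept their order in 1 to 3 of 4 libraries. Since no pair could pass 0.05 and the pairs were ordered by the same values, these p-values do not show whether neighbours differ.

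Among the activating receptors, *Klrb1c*, which encodes NK1.1 (chromosome 6, 128778485 to 128788641), had 245, 70.3, 155 and 70.8 CPM in replicates 1 to 4, on 1771, 734, 694 and 282 counts. Replicates 1 and 3, 1 of each experiment, were above replicates 2 and 4, by 3.49-fold in the second experiment and 2.19-fold in the first. In bulk samples, fewer cells that express a gene and less RNA of it per cell cannot be told apart. *Klrb1c* alone gave 73.1% (95% Wilson interval 71.3% to 74.8%), 47.4% (44.97% to 49.9%), 64.7% (61.8% to 67.5%) and 70.3% (65.7% to 74.6%) of the counts on the 7 receptor genes, and by TPM, too, it was the highest of the 7 in every library.

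*Klrk1* (129610323 to 129623864), which encodes NKG2D, the activating receptor for stress-induced ligands, had 25.4, 24.2, 25.2 and 13.05 CPM on 183, 253, 113 and 52 counts. Replicates 1, 2 and 3 lay close together and replicate 4 was lower. Its spread over the 4 libraries (21.96 ± 5.97 CPM, a coefficient of variation of 27.2%) was the smallest of the 10 genes with TMM scaling. Scaled to T cell markers, as described below, its coefficient of variation was 73.8%.

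CD94, encoded by *Klrd1* (129591810 to 129598775), forms dimers with the NKG2 chains of *Klrc1* and *Klrc2*. *Klrd1* had 10.3, 1.53, 11.2 and 6.77 CPM on 74, 16, 50 and 27 counts, with replicate 2 the lowest. *Klrc1* (129666016 to 129678973), which encodes the inhibitory chain NKG2A, had 19.7, 22.9, 20.8 and 1.25 CPM on 142, 239, 93 and 5 counts. Replicates 1 to 3 lay close together, and replicate 4 was far below them. The activating chain NKG2C, from *Klrc2* (129656346 to 129660596), was near the floor with 1.80, 0.862, 2.46 and 0.251 CPM on 13, 9, 11 and 1 counts. *Klrc1* exceeded *Klrc2* by TPM in replicates 1 to 3, by 4.31-fold (exact binomial 95% interval 2.44 to 8.29), 10.5-fold (5.42 to 23.2) and 3.33-fold (1.78 to 6.91). In replicate 4 the ratio of 1.97 rested on 5 and 1 counts (0.221 to 93.3) and showed no order. The inhibitory chain was thus the more abundant in replicates 1 to 3.

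The ratio of *Klrd1* to *Klrc1* by TPM was 1.19 (0.887 to 1.59) in replicate 1, 0.153 (0.0861 to 0.254) in replicate 2, 1.23 (0.854 to 1.75) in replicate 3 and 12.4 (4.69 to 41.1) in replicate 4. CD94 and NKG2A transcripts were thus close to equal in replicates 1 and 3, while replicate 2 had fewer CD94 and replicate 4 fewer NKG2A transcripts. Without replicate 4 the geometric mean was 0.608 in place of 1.29. *Klre1* (129578286 to 129585827), which encodes NKG2I, a partner of the *Klri1* and *Klri2* products, had 18.3, 11.4, 16.1 and 5.27 CPM on 132, 119, 72 and 21 counts. It was highest in replicates 1 and 3, like *Klrb1c*. Of its partner genes, *Klri1* had 22, 4, 18 and 0 counts and *Klri2* 16, 237, 9 and 1 counts. *Klri2* was thus concentrated in replicate 2, where *Klri1* was low.

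*Klrg1*, which encodes an inhibitory receptor for cadherins found on effector T and NK cells, had 15.1, 16.9, 8.71 and 3.26 CPM on 109, 177, 39 and 13 counts. Both libraries of the second experiment were above both of the first. Of the 11689 genes tested, 14.7% were likewise higher in the second experiment without overlap. No other receptor gene of the 7 separated the experiments with this scaling.

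Of the adaptors, *Hcst*, which encodes DAP10, was the most abundant, with 28.4, 35.3, 102 and 53.7 CPM on 205, 369, 456 and 214 counts. Both libraries of the first experiment were above both of the second, which held for 14.4% of all genes tested, but they overlapped when scaled to T cell markers. *Tyrobp*, which encodes DAP12, had 0, 10.2, 4.46 and 16.6 CPM on 0, 106, 20 and 66 counts, and *Fcer1g* had 8.73, 26.2, 1.34 and 27.1 CPM on 63, 274, 6 and 108 counts. Both were higher in replicates 2 and 4 than in replicates 1 and 3. *Hcst* gave 76.5% (95% Wilson interval 71.1% to 81.2%), 49.3% (45.7% to 52.8%), 94.6% (92.2% to 96.3%) and 55.2% (50.2% to 60.03%) of the counts on the 3 adaptor genes.

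*Hcst* exceeded *Tyrobp* by TPM in every library, by 4.50-fold (exact binomial 95% interval 3.62 to 5.65) in replicate 2, 29.5-fold (18.9 to 48.8) in replicate 3 and 4.196-fold (3.17 to 5.62) in replicate 4. In replicate 1 it was at least 88.4-fold higher, with *Tyrobp* set to the floor of 3 counts in that library. Against *Klrk1*, its best-known receptor partner, *Hcst* was higher by 8.48-fold (6.91 to 10.4) and 11.0-fold (9.38 to 13.001) in the second experiment and by 30.5-fold (24.8 to 37.9) and 31.1-fold (22.9 to 43.01) in the first. DAP10 transcripts were thus more abundant than NKG2D transcripts by TPM in each library. These ratios do not depend on how the libraries were scaled. They do depend on the deposited gene lengths, 442 bases for *Hcst* and 3344 for *Klrk1*. As a ratio of counts, the geometric mean of *Hcst* to *Klrk1* was 2.28 in place of 17.3. *Fcer1g* and *Tyrobp* had no fixed order, with a ratio of at least 18.3 in replicate 1 (with the same floor), 2.25 (1.79 to 2.84) in replicate 2, 0.261 (0.0857 to 0.673) in replicate 3 and 1.42 (1.04 to 1.96) in replicate 4. Without replicate 1 its geometric mean was 0.941 in place of 1.98.

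Most receptor genes and the adaptor genes *Tyrobp* and *Fcer1g* differed in opposite directions between the libraries of an experiment. Since replicates 2 and 4 stood apart from replicates 1 and 3 in both experiments, differences in log2 CPM (prior count of 2) were taken as replicate 2 minus 1 and replicate 4 minus 3, as a description without a test. *Klrb1c*, *Klrk1*, *Klrd1*, *Klrc2* and *Klre1* were lower in replicates 2 and 4 in both experiments, except that *Klrk1* differed by 0.19 in the second experiment when scaled by library size alone. Of all genes tested, 29.9% were lower in both. *Klrb1c* differed by -1.80 and -1.13, *Klrd1* by -2.52 and -0.70 and *Klrk1* by -0.06 and -0.93. The median over the 7 receptor genes was -0.67 in the second experiment and -1.34 in the first. By contrast, *Tyrobp* and *Fcer1g* were higher in both, as were 35.2% of all genes. *Fcer1g* was 3.01-fold higher in replicate 2 than 1 and 20.2-fold higher in replicate 4 than 3. *Tyrobp* was at least 24.4-fold higher in replicate 2 than the floor of 3 counts in replicate 1, and 3.71-fold higher in replicate 4 than 3. The other 3 genes, *Klrc1*, *Klrg1* and *Hcst*, differed by 0.22, 0.16 and 0.31 in the second experiment and by -3.75, -1.34 and -0.92 in the first.

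Marker genes of T cells and of other cells also differed between these libraries. The median difference of the 8 T cell markers was -1.38 in the second experiment and -1.68 in the first, and 8 of 8 were lower in both. Set against these T cell marker medians, 0 of the 7 receptor genes were lower in both experiments and 3 were higher. *Klrb1c* differed by -0.42 and 0.55, whereas all 3 adaptor genes were higher in both. The median over all genes tested was 0.13 in the second experiment and 0.08 in the first, above those of the T cell markers. A typical gene was thus higher on this measure as well, and the share of all genes higher in both was not computed. All 6 NKT markers were lower in both, with medians of -2.18 and -1.30. Of the 18 epithelial markers, 16 were higher in both, with medians of 3.43 and 5.45. The 15 myeloid markers had medians of 0 and 1.89, with 5 higher and 1 lower in both. The gate had removed cells with CD11b or CD11c, but transcripts of both were present in every library. *Itgam* (CD11b) had 26, 334, 21 and 65 counts in replicates 1 to 4 and *Itgax* (CD11c) 68, 100, 13 and 116. Both were among the 5 that were higher in both, *Itgax* by only 0.02 in the second experiment. The summed share of the 15 markers was 0.0244% in replicate 1, 0.0242% in replicate 2, 0.00467% in replicate 3 and 0.0247% in replicate 4. No myeloid marker was at 0 in all libraries. *Lyz2*, *Cybb* and *Cd68* had 259, 1030 and 5 counts in replicate 1 and 215, 884 and 84 in replicate 2. In replicates 3 and 4 they had 39, 5 and 11, and 209, 76 and 118 counts. Of the 12 mast cell and basophil markers, 9 were at 0 counts in all 4 libraries, among them *Fcer1a* and *Ms4a2*, which encode the receptor chains that pair with the γ chain in mast cells, and *Mcpt1*, *Mcpt2*, *Mcpt4*, *Mcpt8*, *Tpsb2*, *Tpsab1* and *Cma1*. *Kit*, listed here as a mast cell marker, was higher in replicates 2 and 4, like *Fcer1g* and most epithelial markers, with 6, 657, 9 and 109 counts. The remaining markers of this list were *Hdc*, with 32, 120, 47 and 50 counts, and *Cpa3*, with 4, 0, 0 and 5 counts. The part of these other cells in the levels of *Tyrobp* and *Fcer1g* was not tested, nor was that of the T cell share in the levels of the receptors.

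**Figure D2:**
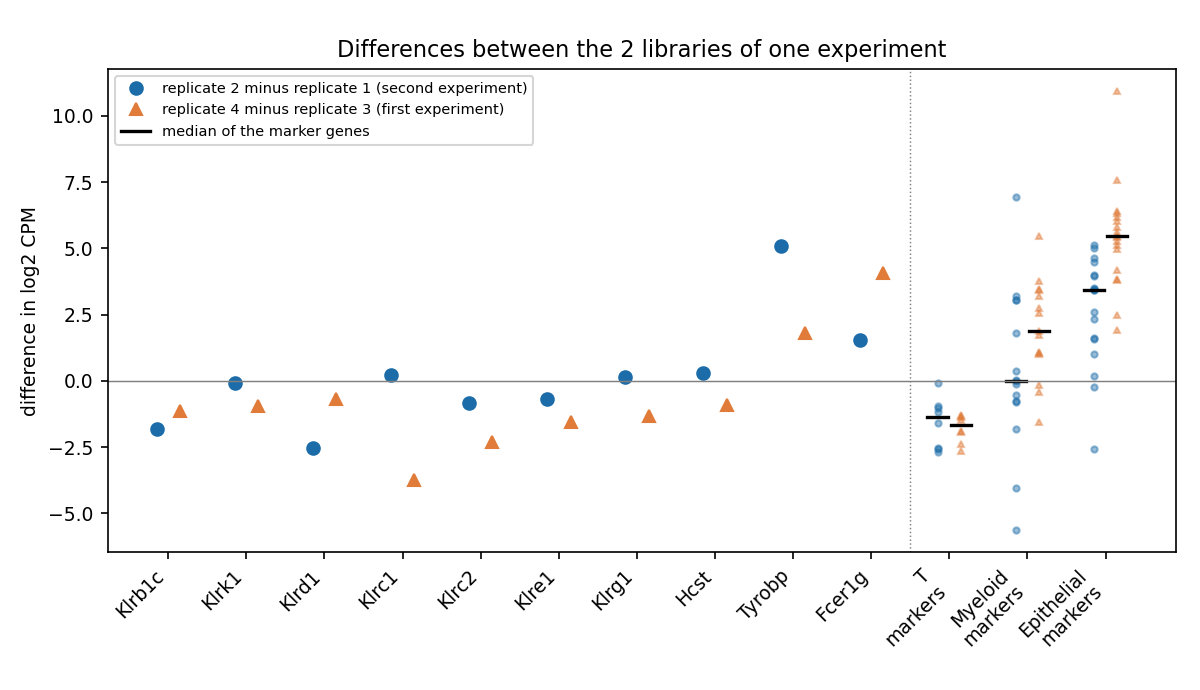
Difference in log2 CPM between the 2 libraries of each experiment for the 10 genes and for markers of T, myeloid and epithelial cells, with a large symbol per receptor or adaptor gene, a small one per marker and bars at the median of each marker list. Of the 7 receptor genes 5 lie below 0 in both experiments (4 when scaled by library size alone), *Tyrobp* and *Fcer1g* lie above 0 in both, and the value of 5.09 for *Tyrobp* depends on the prior count because replicate 1 had 0 counts.

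Between the experiments, none of the 10 genes passed the test. With edgeR's quasi-likelihood F test and adjusted p-values after Benjamini and Hochberg (2 against 2 libraries), 0 of the 10 and 0 of 11689 genes (0%) had an adjusted p under 0.05. At an unadjusted p under 0.05 there were 0 of the 10 and 248 of all genes (2.12%), and DESeq2 called 0 of the 10 and 41 of all genes. The largest differences, second minus first, were 1.42 log2 units for *Klrg1* (standard error 1.37) and -1.29 for *Hcst* (standard error 0.74, unadjusted p = 0.127), each with an adjusted p of 0.9997 by edgeR. The standard errors of the 10 genes ran from 0.74 for *Hcst* to 2.31 for *Tyrobp*, and the biological coefficient of variation was 0.976. Leaving out each replicate, *Klrg1* ranged from 0.89 (without replicate 4) to 2.28 (without 3), *Hcst* from -1.66 (without 4) to -0.77 (without 3) and *Klrc1*, at 0.95 with all libraries, from 0.05 (without 4) to 4.05 (without 3). Of the 10 genes, *Klrg1* and *Hcst* did not overlap between the experiments and 8 did, against 29.1% of all genes without overlap in either direction. The median difference over the 10 genes was 0.34 against 0.03 for all genes tested. The difference between the libraries of an experiment is part of this spread.

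The receptors' pattern over the libraries changed when levels were set against T cell markers in place of all genes. With each library scaled to its summed counts on the 8 T cell markers, *Klrb1c* was at 175, 152, 74.9 and 94.5 in replicates 1 to 4, with a coefficient of variation of 38.1% against 61.7% with TMM factors. *Cd3e* gave 13247, 6428, 9340 and 3408 of the 23558, 11246, 21619 and 6967 counts summed for replicates 1 to 4. *Klrk1* was at 18.1, 52.5, 12.2 and 17.4 and *Klrg1* at 10.8, 36.7, 4.21 and 4.35. On this scale 6 of the 7 receptor genes (all but *Klrd1*) were higher in the second experiment without overlap, against 1 with TMM factors and a background of 18.3% of all genes. The gap was narrow for *Klrk1*, at 18.1 in replicate 1 against 17.4 in replicate 4. It was also narrow for *Klrc2*, at 1.29 in replicate 1 against 1.19 in replicate 3, on 13 and 11 counts. *Klrd1*, at 7.33, 3.32, 5.40 and 9.04, overlapped. None of the 3 adaptor genes separated the experiments. The scaling itself moved the median difference of all genes between the experiments by 0.59 log2 units, from -0.04 to 0.55, and only 5.02% of genes were higher in the first. On the same scale the difference, second minus first, was 0.95 for *Klrb1c*, 1.06 for *Klrk1*, 0.79 for *Klrc2*, 1.23 for *Klre1*, 2.10 for *Klrg1* and 2.50 for *Klrc1*, each above that median of 0.55 for all genes. Plasma cell markers separated the experiments as well, with 0.655% (95% Wilson interval 0.649% to 0.661%) and 0.839% (0.833% to 0.845%) of the counts in replicates 1 and 2 of the second, and 0.0114% (0.0105% to 0.0123%) and 0.0387% (0.0368% to 0.0407%) in replicates 3 and 4 of the first. B cell markers had 383 and 546 counts in the second and 2 and 0 in the first. Their part in the differences between experiments was not tested, nor was whether the receptors differ per T cell.

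**Figure D3:**
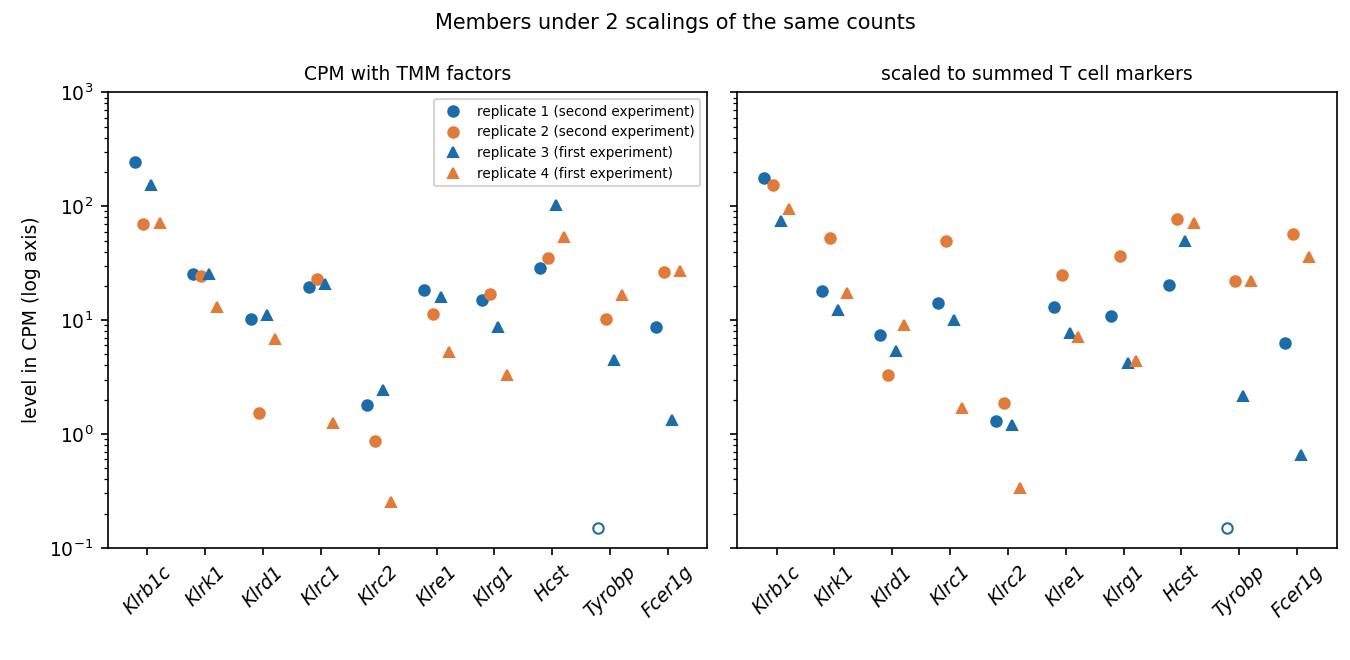
Levels of the 10 genes in the 4 libraries (log axes) as CPM with TMM factors on the left and scaled to the summed counts of 8 T cell markers on the right, with circles for the second experiment, triangles for the first and open circles for 0 counts. On the right, circles lie above triangles for 6 of the 7 receptor genes, narrowly so for *Klrk1* and *Klrc2*, while *Tyrobp* and *Fcer1g* span a wide range on either scale.

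The lists around the receptors differed in how much of them was detected. Of 25 other NK receptor genes in the table, which hold all but *Eomes* of the NK cell markers, 4 were above 3 counts in all 4 libraries, 5 were at 0 in all, 12 were tested between the experiments and 0 passed. The most abundant were *Cd226* (242 ± 136 TPM, n = 4), *Cd96* (207 ± 151 TPM) and *Cd160* (108 ± 77.4 TPM), which encode receptors of the immunoglobulin family for nectins or for the ligand HVEM. All 3 were lower in replicates 2 and 4 than in 1 and 3, like *Klrb1c*. *Cd226* had 400.4, 109, 308 and 149.6 TPM in replicates 1 to 4. The Ly49 genes *Klra4*, *Klra6* and *Klra8* and the NK cell gene *Ncr1* were at 0 in all libraries, while *Klra9* had 571, 16, 10 and 2 counts and thus came almost wholly from replicate 1. Of the 101-base windows of the *Klra9* transcript, at least 4.92% also occur in *Klra10*. The median percentile of the 12 genes tested was 23.5.

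Ligands of these receptors were read from the same libraries. Of 15 ligand genes, 7 were above 3 counts in all 4 libraries, and these 7 were tested, with 0 passing. *H60b*, which encodes a ligand of NKG2D, had 1017, 309, 585 and 233 TPM, at a mean percentile of 97.2, and was higher than *Klrk1* in every library. Of the 101-base windows of the *H60b* transcript, at least 8.15% are shared with *Raet1e*, which had 0, 1, 0 and 0 counts. The NKG2D ligand genes *Raet1a*, *Raet1b*, *Raet1c*, *Raet1d* and *H60c* were at 0 counts in all libraries. *H2-T23*, which encodes Qa-1, the ligand of CD94/NKG2A, had 167, 124, 348 and 159 TPM, at percentile 92.4. *Cdh1*, which encodes E-cadherin, the ligand of KLRG1, had 72.6, 514, 4.96 and 297 TPM and was thus high where the epithelial markers were high.

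Of 22 signalling genes downstream of the adaptors, 20 were above 3 counts in all libraries, 22 were tested and 0 passed, with a median percentile of 66.3. *Lck* and *Sh2d1a* of this list are also among the T cell and NKT markers. The most abundant were *Pik3r1* (392 ± 247 TPM, n = 4), the regulatory subunit of the PI3 kinase that DAP10 recruits, and the T cell adaptors *Lcp2* (348 ± 205 TPM) and *Lat* (253 ± 115 TPM). Of the 22, 14 were lower in replicates 2 and 4 than in 1 and 3 in both experiments, and 4 were higher, *Syk*, *Lyn*, *Plcg2* and *Crk*. *Zap70*, the Syk-family kinase of T cells, had 60.1, 35.6, 194 and 70.1 TPM. *Syk*, the related kinase abundant in B and myeloid cells, had 9.08, 27.1, 1.25 and 15.1 TPM. *Zap70* exceeded *Syk* in every library, and *Syk* was high in the libraries where *Tyrobp* and *Fcer1g* were high. The genes *Zap70*, *Syk*, *Lyn*, *Plcg2* and *Crk* were named after their values were seen.

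Of 12 other receptor genes whose products pair with DAP12 or the γ chain, such as *Trem2*, *Siglech*, *Fcer1a* and *Fcgr1*, 0 were above 3 counts in all libraries and 6 were at 0 in all. The most abundant by mean TPM were *Trem1*, with 157, 0, 6 and 28 counts, *Clec4n*, with 2, 0, 1 and 21 counts, and *Fcgr1*, with 0, 26, 6 and 1 counts. Each was thus seen mainly in 1 library, and not in the same one. *Fcgr3*, the low-affinity Fc receptor that needs the γ chain, had 0, 0, 19 and 50 counts and was at 0 in replicate 2, where *Fcer1g* had 274 counts. Its unadjusted p between the experiments was under 0.05, with an adjusted p of 0.9997 by edgeR.

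**Figure D4:**
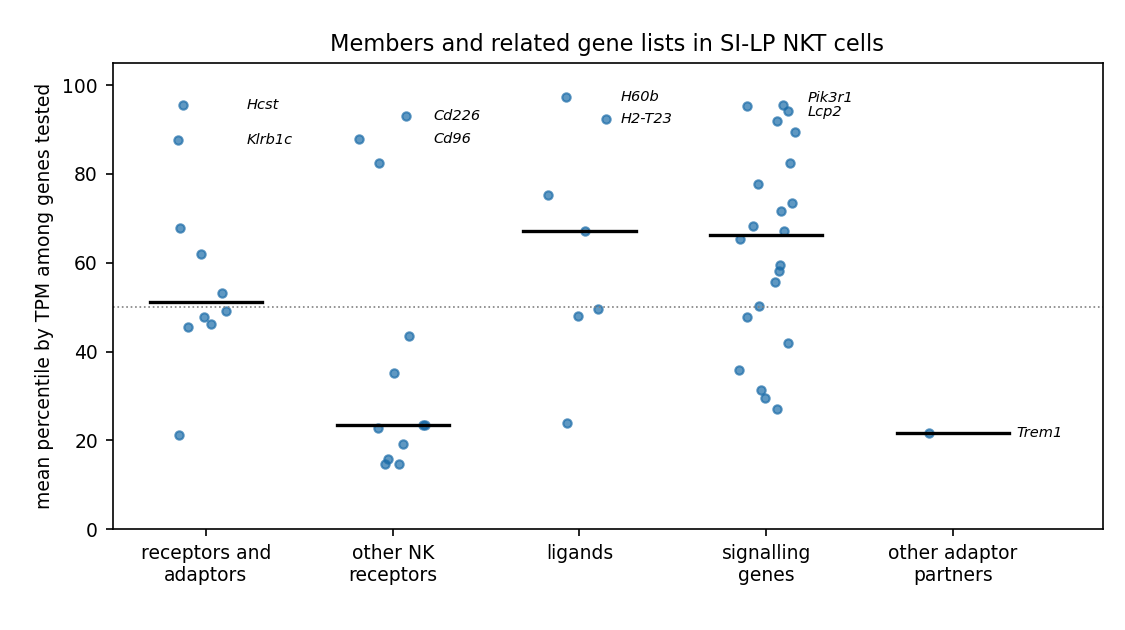
Mean percentile by TPM among the 11689 genes tested for the 10 receptor and adaptor genes and for 4 related lists, with a point per gene that passed the filter on low counts, bars at each list's median and a dotted line at 50. The medians are 51.2 for the 10 genes, 23.5 for other NK receptors, 67.2 for ligands and 66.3 for signalling genes, and for other adaptor partners the single point is *Trem1*.

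Last, the genes whose profile over the 4 libraries was most like that of the most abundant receptor gene and adaptor gene were looked up among the 8089 genes that reached 10 counts in every library, by the root mean square difference of log2 CPM centred over the libraries. For *Klrb1c* they were *Wac* (0.04), *U2af2* (0.04) and *A930006K02Rik* (0.06), and for *Hcst* they were *Ubxn1* (0.06), *Zc3h7b* (0.07) and *Twf2* (0.08). Within 0.25 of the profile there were 173 genes for *Klrb1c* and 70 for *Hcst*. With 4 libraries such a profile holds little information, and the likeness is a description.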

How the data were processed

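Total RNA of sorted SI-LP NKT cells was made into 4 libraries with a low-input kit that is not described as keeping strand. The authors deposited raw counts per gene, and per the file headers they counted primary alignments of read pairs on RefSeq exons (mm10, GRCm38) with featureCounts 1.6.4 and no strand option. The methods name HISAT2 and GRCm39 and a NovaSeq, whereas the labels name GRCm38.p6 and a HiSeq, and the deposited positions of the genes described are those of GRCm38. The deposited gene lengths, which are no measurement, were used for TPM. Of 6 library columns, 4 matched a sample label and the other 2 were not used.

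All 10 genes were named, in each related list the 3 genes with the highest mean TPM and any gene called between experiments, the 3 genes nearest in profile to the most abundant receptor and adaptor, and the leading markers. Other genes were named after their values were seen. The genes, lists and tests were chosen with earlier results of these data known.

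Genes with 10 or more counts in 2 or more libraries (11689 of 25239) entered edgeR's quasi-likelihood F test of the second against the first experiment, with TMM factors, Benjamini-Hochberg adjustment and a threshold of 0.05. The standard error is the absolute log2 fold change divided by the square root of the F statistic. Shares have 95% Wilson intervals and ratios exact binomial intervals, which cover counting error only, since reads without molecular identifiers are not independent molecules. Totals of 3882803 to 8732858 counts set the floor of 3 counts per library. The gene *Rn45s*, a ribosomal RNA precursor, took 7.36% to 28.1% of the counts. Alternatives were DESeq2 (the authors' tool), median-of-ratios factors, library size with and without *Rn45s*, scaling to T cell markers, other filters, a prior count of 0.5 in place of 2, a pseudocount of 0.1 in place of 1, CPM or count ratios in place of TPM, and leaving out each replicate. Promoters came from RefSeq. Descriptions were computed in Python 3.11.15 with scipy 1.17.1, pandas 2.3.3 and numpy 2.4.6, and models in R 4.3.3 with DESeq2 1.42.0, limma 3.58.1 and edgeR 4.0.16.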

Additional observations from a re-analysis of the deposited data

Results flagged for a closer look

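In 5 of 25 quantities examined, 1 of the 4 libraries lay far from the others, where chance gives about 1 in 20 (1.25 of 25). The quantities are not independent, so 5 against 1.25 does not measure an excess. *Klrc1* and the ratio of *Klrd1* to *Klrc1* both rest on the 5 counts of *Klrc1* in replicate 4. The gap of that library to its nearest neighbour, as a share of the range, was above Dixon's 95% critical value for 4 samples. For *Klrk1* the share was 0.908, with 13.05 CPM in replicate 4 against 24.2 to 25.4 in the others. For *Klrc1* it was 0.852, with 1.25 CPM in replicate 4 against 19.7 to 22.9. The ratio of *Klrd1* to *Klrc1* had a share of 0.912, from 12.4 in replicate 4 against 0.153 to 1.23. The ratio of *Fcer1g* to *Tyrobp* had a share of 0.890, from a lower bound of 18.3 in replicate 1, where *Tyrobp* was at 0 counts, against 0.261 to 2.25. These shares of ratios depend on the scale. In log2 they are 0.525 and 0.493, under the critical value, and with *Klrc1* over *Klrd1* the library apart is replicate 2, with a share of 0.882. The summed share of myeloid markers had 0.975, with 0.00467% in replicate 3 against 0.0242% to 0.0247%.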

How the results depend on the processing

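No paired analysis was possible because there is only 1 condition and the replicate numbers do not recur between groups. None of the 10 genes that could be tested passed between experiments under any of the 10 alternatives run, which tested 6 of them where 10 counts in all libraries were required, 9 without replicate 1 or 3 and 10 otherwise. Leaving out a replicate sets 2 libraries against 1, and the lone library is assumed to vary like the others. The number of genes called rose from 0 to 60 without the filter on low counts and to 41 with DESeq2, and ranged from 0 to 7 when each replicate was left out, with 7 without replicate 3 and 6 without replicate 4. The fold change of *Klrc2* (-0.03) turned positive with median-of-ratios factors (0.0025), library size alone (0.30), no filter (0.020) and DESeq2 (0.0072). Leaving out each replicate, the log2 fold change ranged from -0.64 (without replicate 1) to 1.14 for *Klrb1c*, from -0.015 (without 4) to 0.91 for *Klrk1*, from -2.50 to 0.19 (without 2) for *Klrd1*, from -0.88 to 0.41 (without 2) for *Klrc2*, from -0.11 (without 4) to 1.48 for *Klre1*, from -8.82 to 0.23 (without 4) for *Tyrobp* and from -0.76 (without 2) to 3.71 for *Fcer1g*, which was also negative without replicate 3 (-0.64). *Klrc2* had no value without replicates 1 or 3, since it then fell under the filter. The cause was not tested.

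With CPM in place of TPM, 2 pairs of neighbours kept their order in all libraries, and without each replicate 1 to 3 did. By mean CPM, which is not corrected for gene length, *Klrb1c* (135) came before *Hcst* (54.8). *Klrk1* was then at rank 3 in place of 9, so the order by TPM depends on the deposited lengths. As ratios of counts, *Hcst* to *Klrk1* was 2.28, *Klrd1* to *Klrc1* 0.564 and *Klrc1* to *Klrc2* 10.5, all from the lengths no longer being corrected. Without each replicate, *Klrd1* to *Klrc1* ranged from 0.608 (without replicate 4) to 2.63, *Fcer1g* to *Tyrobp* from 0.941 (without replicate 1) to 3.88 and *Hcst* to *Tyrobp* from 8.23 to 22.7. *Klrk1* was 0.19 higher in replicate 2 than 1 by library size alone. The median percentile of the 10 genes was 37.5 with CPM and 42.9 over the 6 with 10 counts in all libraries, where that of other NK receptors was 80.1, and that of ligands was 47.5 with CPM. Of the 8 genes above 3 counts in every library, chosen as a count after seeing the data, there were 8 or 9 without each replicate and 9 without replicates 2 and 4. *Klrc2* (1 count) and *Klrc1* (5 counts) in replicate 4 and *Fcer1g* (6 counts) in replicate 3 are near the floor of 3 counts, which limits the precision of their ratios. The other values under an alternative, 84 for counts, ratios and list medians and 270 for single genes and marker lists, kept their direction or moved by less than the spread between replicates.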
